A study of Mus musculus with 6 samples.

Results

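Genes named for oxidative phosphorylation were compared between sciatic nerves of 3 control mice and 3 Dok6 mutant mice at postnatal day 3. They were taken from the table of counts by gene symbol, as every mitochondrially encoded gene (mt-) and the genes with the subunit names of respiratory complexes I to IV or of ATP synthase (Ndufa, b, c, s or v with a number, Sdha to Sdhd, Uqcr, Cox4 to Cox8, Atp5), leaving out 5 names that end in -ps and a digit. This gave 129 of the 54532 genes in the table. Of these, 37 were mitochondrially encoded (13 mRNAs, 2 rRNAs and 22 tRNAs) and 92 were nuclear, with 41 genes named for complex I, 4 of complex II, 8 of complex III, 19 of complex IV and 20 of ATP synthase, here complex V. By annotation, 6 of the 92 are processed pseudogenes, of which Ndufb4c was tested, and Ndufb1-ps is a long noncoding RNA. The mutant mice are described as Dok6-/-, made by deleting a floxed stretch of Dok6 with EIIA-cre, a Cre line active in the early embryo, so that the deletion is meant to be in all cells and not in a nerve cell type alone. Controls carried no Dok6 deletion, and each library came from 1 mouse with no further treatment named. DOK6 is an adaptor protein that acts below receptor tyrosine kinases.

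Oxidative phosphorylation passes electrons from NADH and succinate through complexes I to IV to oxygen, and ATP synthase uses the resulting proton gradient to make ATP. Complex II is wholly nuclear encoded. The other complexes join subunits from the nucleus with a few made from mitochondrial DNA, so both genomes must supply parts. Long peripheral axons draw much of their energy from it, and striated muscle uses its own isoforms of several complex IV subunits.

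Each library held 17699904 to 18678170 counts, and values below are counts per 1000000 in a library (CPM), with library sizes adjusted by the trimmed mean of M values (TMM). Dok6 itself was 17.8, 11.9 and 17.5 CPM in the control mice and 7.26, 5.78 and 7.15 CPM in Dok6 mutants (log2 fold change -1.23, SE 0.20, edgeR adjusted p = 0.0118). The labelled tissue showed its own markers but also those of others. A 12-gene Schwann cell list summed to 252 to 1816 CPM in controls and 435 to 6773 CPM in mutants, while 14 central nervous system genes summed to 3108 to 3772 CPM in controls and 2658 to 3985 CPM in mutants. Lists of skeletal muscle, sensory neuron and fibroblast genes were higher in every mutant than in every control, and an erythroid list was lower in every mutant. In bulk tissue, fewer cells of a type and less RNA per cell cannot be told apart.

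Nuclear genes of oxidative phosphorylation lay slightly but widely below control levels in the mutants. Summed over the 92 genes, they gave 9159, 9791 and 10252 CPM in the control mice and 8426, 8325 and 8372 CPM in the mutants. The 3 mutants were close together and all lay below the lowest control, and the ratio of the means was 0.860. With 3 mice against 3 an exact two-sided permutation test cannot go below p = 0.1, so the sums are given without a test. Of 83 nuclear genes with enough counts to test, 74 were lower in the mutants by their point estimate and 9 were higher, with a median log2 fold change of -0.20 against 0.01 over all 17099 genes tested. Of those 17099, 8316 were lower by point estimate. In 48 of the 83, the highest mutant lay below the lowest control, as was so for 18.7% of all genes tested. In 2 of the 83, Cox6a2 and Cox7a1, every mutant was above every control, against 19.6% of all genes. Both were near the low-count filter in controls, with 3 to 10 counts there and 13 to 33 in mutants, so this count is a description only.

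**Figure D1:**
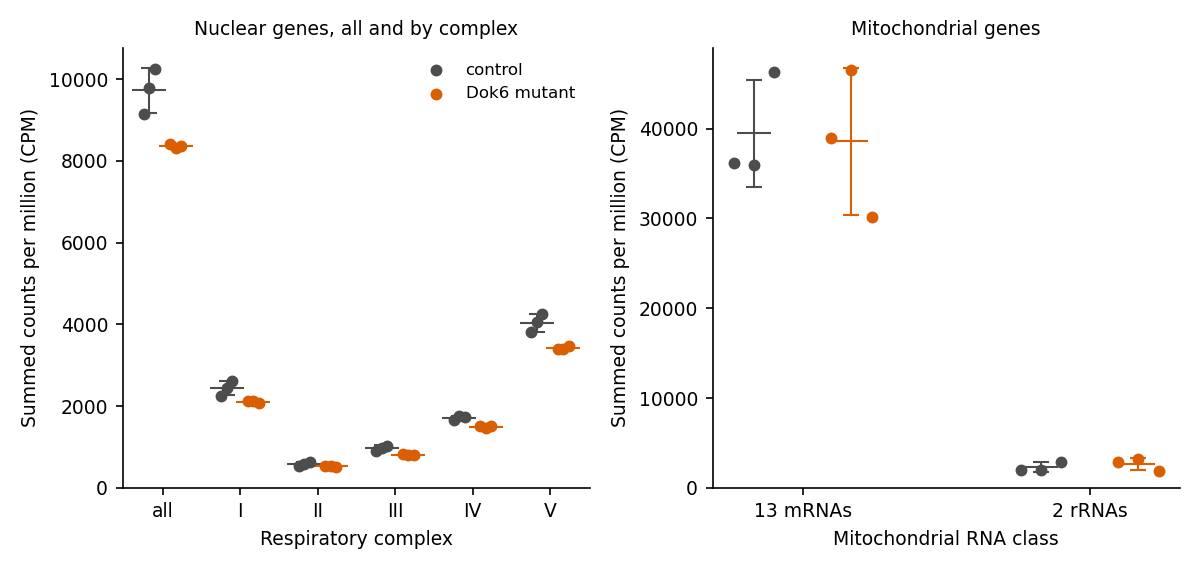
Summed CPM of the nuclear genes, in all and by complex (left), and of the mitochondrial mRNAs and rRNAs (right), in control mice (grey) and Dok6 mutants (orange), with 1 point per mouse and bars for the mean ± SD (n = 3). All 3 mutants lay below all 3 controls for the nuclear total (8325 to 8426 against 9159 to 10252 CPM), while the mitochondrial mRNA sums overlapped.

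Few of these small differences passed the test. At an adjusted p under 0.05 (edgeR quasi-likelihood test over all genes), 9 nuclear genes fell (10.8% of those tested, against 6.01% of all genes) and 1 rose, Cox6a2 (against 8.62% of all genes). Another 8, all lower, had an adjusted p between 0.05 and 0.06. Abundant genes in general were called lower more often. Among genes that averaged at least 20 CPM over the 6 libraries, 9 of 73 nuclear oxidative phosphorylation genes fell (12.3%), against 10.4% of all 8487 such genes, and the medians were -0.21 and -0.07. By point estimate, 71 of those 73 genes and 5124 of the 8487 were lower. All mutants lay below all controls for 47 of the 73 and for 2391 of the 8487. The 9 calls also depended on single mice: none remained without mutant 1, mutant 2, control 2 or control 3, 5 were called without mutant 3 and 15 without control 1. The count of genes lower by their point estimate was steadier, at 71 to 75 of the 83 when any 1 mouse was left out. Of the 92 nuclear genes, 33 have a transcript near-identical to part of another gene and 31 share exon bases with one, so their counts are less certain.

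The nuclear medians were alike in the 5 complexes. In complex I, which takes electrons from NADH, 37 of 39 tested nuclear genes were lower by point estimate, with a median log2 fold change of -0.18. Of the 9 nuclear genes that fell, 3 bear names of this complex. Ndufs3, a core subunit of the arm that holds the iron-sulphur clusters, was 70.5, 82.6 and 87.4 CPM in controls and 61.9, 60.4 and 59.5 CPM in mutants. It had the largest called decrease among nuclear members, at -0.40 (SE 0.10, edgeR adjusted p = 0.0300). A transcript of Gm12251 is near-identical to part of it and it shares exon bases with Kbtbd4, so its counts are less certain. Ndufv2, an iron-sulphur subunit, was 106, 119 and 133 CPM in controls and 93.7, 97.6 and 88.9 CPM in mutants, a fall of 0.35 on the log2 scale (edgeR adjusted p = 0.0409). Ndufa4, named for complex I but since assigned to complex IV, was 156, 178 and 186 CPM in controls and 142, 139 and 142 CPM in mutants (-0.30, edgeR adjusted p = 0.0463). In all 3 genes the groups did not overlap. Among other core subunits of complex I, Ndufs1 had a log2 fold change of -0.21 (edgeR adjusted p = 0.0979) and Ndufv1 one of -0.17 (edgeR adjusted p = 0.138), and neither passed the test. Ndufa4l2, a paralogue of Ndufa4 known as a hypoxia-induced gene, ran the other way at 3.44, 4.36 and 1.83 CPM in controls and 4.82, 3.27 and 9.27 CPM in mutants, with overlapping groups (0.85, adjusted p = 0.200).

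**Figure D2:**
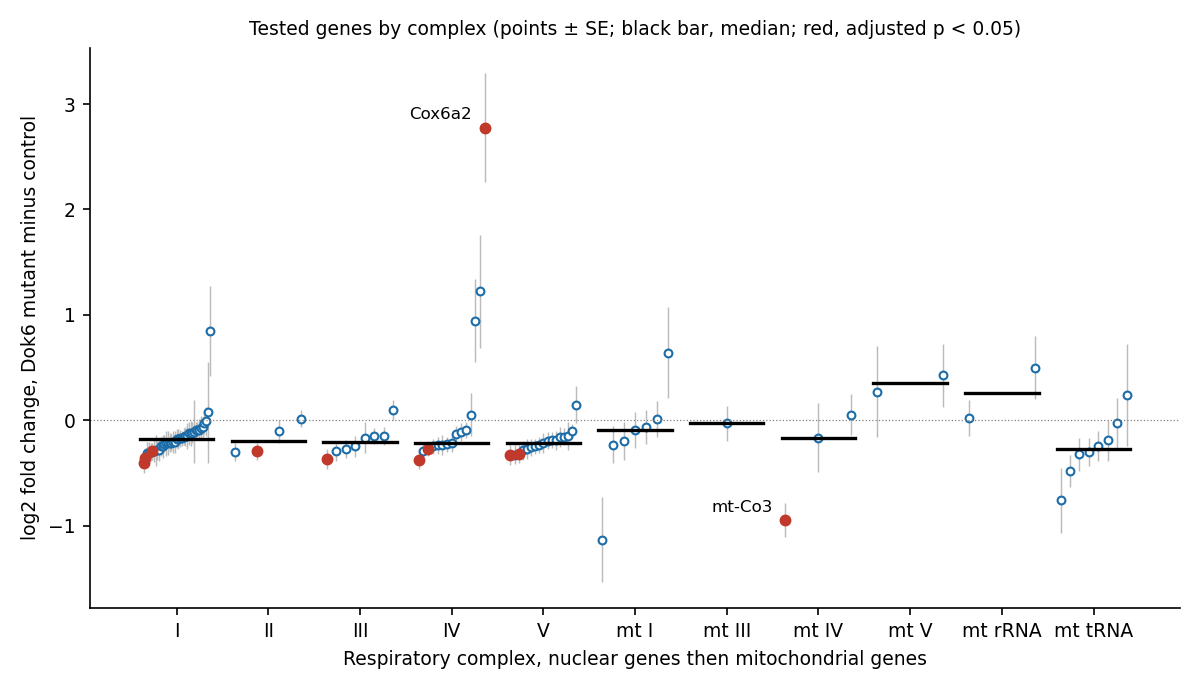
Log2 fold change, Dok6 mutant minus control, of every tested gene (points, with SE as grey lines), by complex, nuclear genes first and mitochondrial (mt) genes after, with black bars for medians and red points for an adjusted p under 0.05. The nuclear medians lie between -0.22 and -0.18 in all 5 complexes, and Cox6a2 and mt-Co3, labelled, are the called genes of complex IV with the largest change in each direction.

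Complex II, succinate dehydrogenase, had a median of -0.20 over its 4 genes. Sdhb, its iron-sulphur subunit, was 123, 135 and 145 CPM in controls and 110, 112 and 107 CPM in mutants, and fell by 0.30 on the log2 scale (SE 0.08, edgeR adjusted p = 0.0438). Sdhd, a membrane anchor, was 104, 120 and 124 CPM against 95.2, 89.1 and 97.5 CPM and narrowly missed the threshold (-0.30, adjusted p = 0.0524). The flavin-carrying subunit Sdha was level at 216, 220 and 239 CPM in controls and 233, 238 and 212 CPM in mutants (0.01, SE 0.08), and Sdhc, the other anchor, had a log2 fold change of -0.10 (adjusted p = 0.542). Subunits of the same small complex therefore differed in estimate from 0.01 to -0.30, with SEs of 0.08 to 0.11.

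In complex III, the cytochrome bc1 complex, 7 of 8 genes were lower by point estimate and the median was -0.21. Uqcrc2, a core subunit on the matrix side, was 160, 173 and 197 CPM in controls and 143, 129 and 139 CPM in mutants, a fall of 0.37 on the log2 scale (SE 0.09, edgeR adjusted p = 0.0344). Part of its annotated sequence is near-identical to that of Pdzd9, an overlapping gene, so its counts are less certain. Its partner Uqcrc1 (-0.27, adjusted p = 0.0633) and the Rieske iron-sulphur protein Uqcrfs1 (-0.29, adjusted p = 0.0590) were lower without passing. Uqcr11, a small subunit, was the one gene of the complex with a higher estimate (0.10, adjusted p = 0.484).

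In complex V, ATP synthase, 16 of 17 tested genes were lower by point estimate and the median was -0.21. Atp5a1, the alpha subunit of the catalytic head, shares exon bases with Haus1. It was 1048, 1068 and 1128 CPM in controls and 866, 849 and 889 CPM in mutants, a fall of 0.32 on the log2 scale (SE 0.08, edgeR adjusted p = 0.0399). Atp5b, the beta subunit that forms the head with it, had a smaller log2 fold change of -0.16 that did not pass (adjusted p = 0.224). Atp5g3, which codes for subunit c of the rotor ring, was 248, 289 and 301 CPM in controls and 215, 220 and 233 CPM in mutants (-0.33, adjusted p = 0.0485). Atp5g1 and Atp5g2, which code for the same mature subunit c, had log2 fold changes of -0.19 (adjusted p = 0.121) and -0.24 (adjusted p = 0.0669). Atp5s, named as a coupling factor, was the one tested gene of the group with a higher estimate (0.15, adjusted p = 0.579).

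Complex IV, cytochrome c oxidase, held both the lowest p among nuclear genes that fell and the one gene that rose. Its 15 tested nuclear genes had a median log2 fold change of -0.22. Cox5a, which is part of the enzyme in all tissues, was 112, 122 and 126 CPM in controls and 93.8, 85.6 and 97.7 CPM in mutants, with no overlap, and fell by 0.37 on the log2 scale (SE 0.08, edgeR adjusted p = 0.0252). Cox5a shares exon bases with Gm26631. Cox7a2l, linked to the joining of complexes III and IV, was 159, 175 and 166 CPM in controls and 141, 133 and 139 CPM in mutants (-0.27, adjusted p = 0.0409), and a pseudogene transcript, Gm6969, is near-identical to it. The widely expressed subunits Cox4i1 (-0.23, adjusted p = 0.0674), Cox5b (-0.24, 0.0523), Cox7a2 (-0.29, 0.0527) and Cox6b1 (-0.24, 0.0881) were lower without passing in edgeR, and Cox6a1, Cox8a and Cox7b had log2 fold changes of -0.13, -0.11 and -0.23. Testis-type Cox6b2 was close to level (0.05).

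Muscle isoforms of complex IV, each with few or no counts in controls, had higher values in the mutants, which is a description only. Cox6a2, the heart and skeletal muscle form of subunit 6a (chr7:128205435-128206387, minus strand, GRCm38), was 0.172, 0.172 and 0.229 CPM in controls and 1.56, 1.80 and 0.689 CPM in mutants. All 3 mutants were above all controls, though mutant 3 was lower than the other two, and the controls rested on 3, 3 and 4 counts against 30, 33 and 13 in the mutants. It passed the low-count filter only through the mutants, so a tested difference had to be a rise, and it drops out where 10 counts are required in every library. The log2 fold change was 2.77 (SE 0.52, edgeR adjusted p = 0.0163). It was the one member called with an absolute log2 fold change above 1, which held for 4.01% of all genes tested, and above 2, which held for 1.19%. The call was lost without mutant 2 (adjusted p = 0.0525) or control 2 (0.0864). Its annotated exons overlap those of Itgad. Cox8b, the muscle form of subunit 8, had no count in any control and 21, 19 and 4 counts in the mutants, and did not pass the low-count filter. It passed and was called higher without mutant 3 (adjusted p = 0.0150), and was called with no filter, but with no control count a tested difference had to be a rise. Its mutant mean of 0.779 CPM was at least 4.53-fold higher than the floor of 3 counts per library in controls. Cox7a1, the muscle form of subunit 7a, was 0.344, 0.573 and 0.343 CPM in controls and 0.778, 0.764 and 0.901 CPM in mutants, without overlap, but did not pass the test (0.94, adjusted p = 0.133). With 6, 10 and 6 counts in controls and 15, 14 and 17 in mutants, it too passed the low-count filter through the mutants. Its lack of overlap is therefore a description only. Cox4i2, the form of subunit 4 found in lung, had overlapping groups (1.22, adjusted p = 0.150).

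These isoforms made up little of their pairs. Cox6a2 took 0.0651% to 0.0901% of the counts on Cox6a1 and Cox6a2 together in controls and 0.297% to 0.751% in mutants, without correction for length. Cox8b took none of the pair's counts in controls and 0.105% to 0.579% with Cox8a in mutants. Cox7b2 and Cox8c, both testis forms, and Cox6c2 had at most 3 counts in any library and were not tested. Muscle genes were higher in the same libraries. A list of 28 skeletal muscle genes, none of them members, summed to 68.8, 64.1 and 48.0 CPM in controls and 827, 488 and 185 CPM in mutants. Of its 20 tested genes, 16 were called higher, against 8.62% of all genes tested, and Tnnc2 had no count in any control. A gene that passed the low-count filter only through the mutants could only be called as a rise, and how many did so was not counted. Mutant 3 was lowest of the mutants in this list, in Cox6a2 and in Cox8b, and highest of the mutants in Cox7a1 and Cox4i2. Their part in the isoform differences was not tested.

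**Figure D3:**
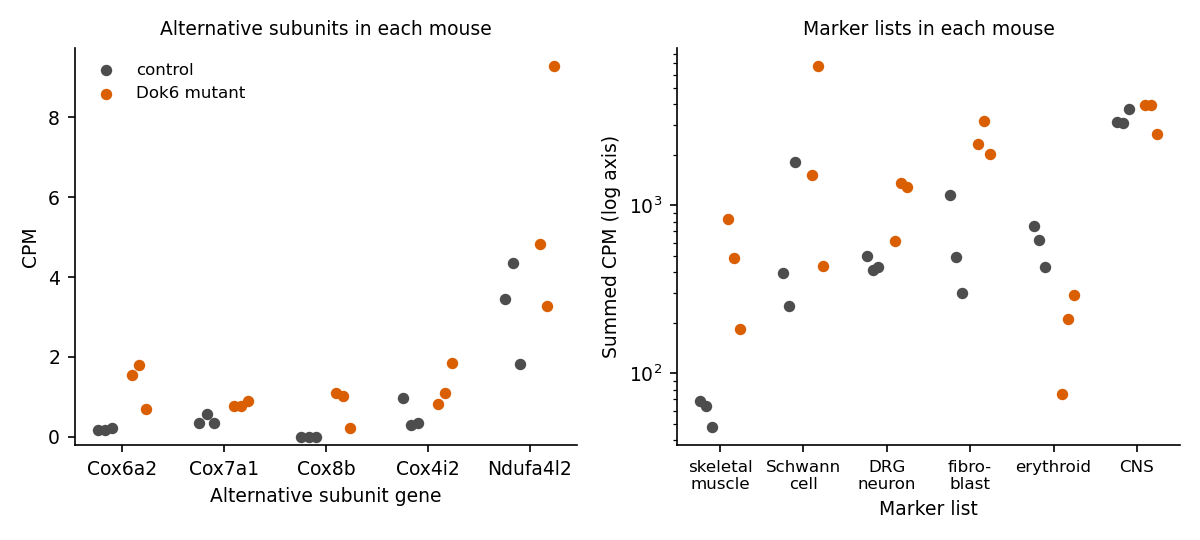
CPM of 5 alternative subunit genes (left) and summed CPM of 6 marker lists on a log axis (right; DRG, dorsal root ganglion; CNS, central nervous system), with 1 point per mouse, control mice in grey and Dok6 mutants in orange. Cox6a2, Cox7a1 and Cox8b had few or no counts in controls and were higher in every mutant. The skeletal muscle list was also higher in every mutant than in every control (185 to 827 against 48.0 to 68.8 CPM).

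Among the other marker lists, the erythroid sums were lower in every mutant, the fibroblast and sensory neuron sums were higher in every mutant, and the other sums overlapped between the groups. Over all genes tested, 8.62% were called higher and 6.01% lower. The erythroid list summed to 431 to 750 CPM in controls and 75.6 to 291 CPM in mutants, with 4 of 6 tested genes called lower. The fibroblast list summed to 299 to 1157 CPM in controls and 2010 to 3181 CPM in mutants (5 of 8 called higher), and the sensory neuron list to 411 to 501 against 616 to 1355 CPM (10 of 13). In the Schwann cell list 6 of 12 genes were called higher, and in the central nervous system list 3 of 14 lower. An adipose list summed to 71.9 to 80.9 CPM in controls and 64.2 to 78.6 CPM in mutants, and a motile cilia list to 36.4 to 52.8 and 35.5 to 78.0 CPM. The part of these markers in the lower nuclear genes was not tested.

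Promoters of the nuclear genes were searched for the binding motifs of NRF1 and GABP, transcription factors known to act on many respiratory genes. A RefSeq promoter (GRCm38.p6, from 250 bases before to 50 after the gene start) was found for 67 of the 83 tested nuclear genes and for 12315 of all genes tested. The NRF1 core GCATGCGC, on either strand, was in 10 of the 67 (14.9%) and in 5.38% of the 12315. The GABP motif CCGGAAG, on either strand, was in 16 of the 67 (23.9%) and in 17.5% of the 12315. The matched strings did not overlap in the promoters printed here. Of the 10 called nuclear genes, 7 had a promoter in the table, and 2 of those held a motif. These are shown 5′ to 3′ with the matches in capitals, since they belong to genes that fell, Ndufs3 (chr2:90904672-90904971, minus strand, GABP motif on each strand) and Sdhb (chr4:140961021-140961320, plus strand, an NRF1 core before the start and a GABP motif after it).
Ndufs3: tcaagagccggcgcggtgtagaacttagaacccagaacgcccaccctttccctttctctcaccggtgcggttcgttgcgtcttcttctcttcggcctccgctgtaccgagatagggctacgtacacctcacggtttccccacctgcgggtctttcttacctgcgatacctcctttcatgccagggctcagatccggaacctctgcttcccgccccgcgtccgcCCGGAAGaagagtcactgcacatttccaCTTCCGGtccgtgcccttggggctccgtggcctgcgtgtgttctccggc
Sdhb: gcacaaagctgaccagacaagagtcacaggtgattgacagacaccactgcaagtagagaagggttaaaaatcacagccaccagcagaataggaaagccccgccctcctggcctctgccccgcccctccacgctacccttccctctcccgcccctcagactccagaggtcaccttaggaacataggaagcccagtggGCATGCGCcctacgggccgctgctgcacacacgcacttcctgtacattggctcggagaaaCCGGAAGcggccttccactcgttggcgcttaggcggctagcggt
The called genes Atp5g3, Cox5a, Cox7a2l, Ndufa4 and Ndufv2 held neither string in this window. A match is a description of letters and not a shown binding site.

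Mitochondrially encoded mRNAs showed no common direction. Their sum was 36145, 35962 and 46303 CPM in controls and 39004, 46547 and 30206 CPM in mutants. The highest and lowest values were both in mutants, and the ratio of the means was 0.978. All mitochondrial genes together took 3.73% to 4.80% of counts in controls and 3.27% to 5.03% in mutants. The ratio of mitochondrial mRNA to nuclear sums was 3.95, 3.67 and 4.52 in controls and 4.63, 5.59 and 3.61 in mutants, so these groups overlapped too. Of the 13 mRNAs, 5 were higher and 8 lower by point estimate, with a median log2 fold change of -0.06, and 1 of the 13 was called lower, mt-Co3 (7.69%, against 6.01% of all genes tested). The split depended on single mice. Without mutant 3, 4 of 13 were lower, and without mutant 2, 11 of 13, and the median ran from -0.22 to 0.07 as each mouse was left out in turn. The difference between the nuclear and the mitochondrial medians was not tested.

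For each of the 7 abundant mRNAs outside the stretch from mt-Co2 to mt-Nd4l, the groups overlapped. mt-Co1, the catalytic core of complex IV, was 12752, 12843 and 16378 CPM in controls and 15079, 17745 and 10741 CPM in mutants (0.05, SE 0.19). It alone made up 35.3% to 35.7% of mitochondrial mRNA counts in controls and 35.6% to 38.7% in mutants. mt-Cytb, the mitochondrial subunit of complex III, and the complex I subunits mt-Nd1, mt-Nd2, mt-Nd4, mt-Nd5 and mt-Nd6 had log2 fold changes from -0.23 to 0.01 with SEs of 0.16 to 0.18, and in each the groups overlapped. mt-Rnr1, the small ribosomal RNA, was 694, 678 and 1106 CPM in controls and 1346, 1496 and 663 CPM in mutants (0.50, adjusted p = 0.277), with mutant 3 lowest of all 6, and it was called higher without that mouse (0.78, adjusted p = 0.0387). The large ribosomal RNA mt-Rnr2 was level (0.02, SE 0.17).

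**Figure D4:**
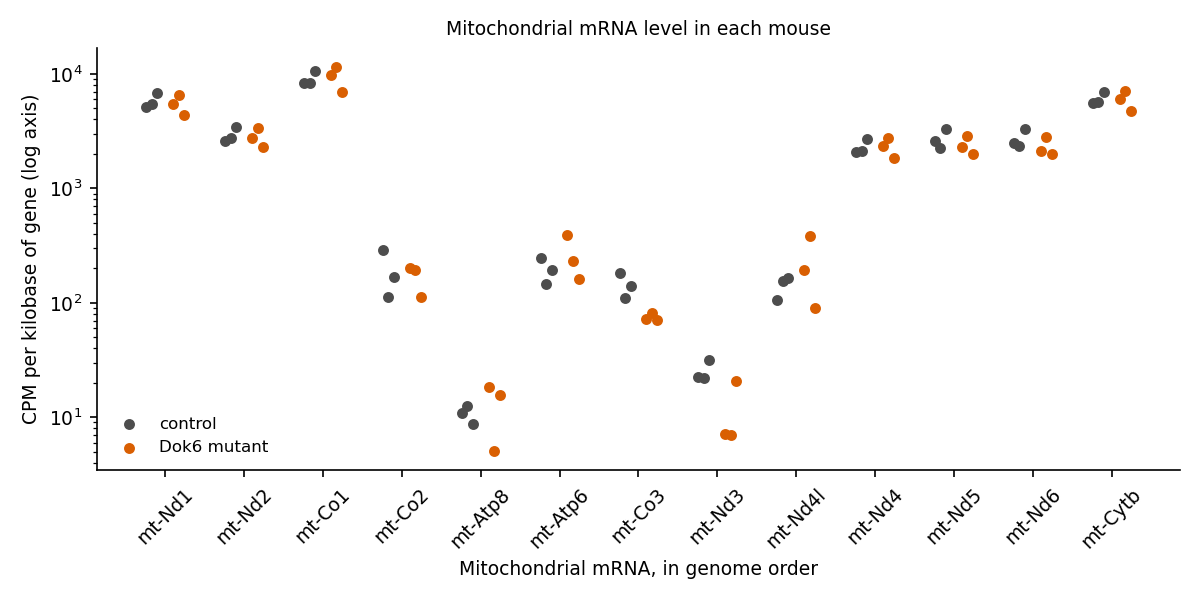
Level of the 13 mitochondrial mRNAs in CPM per kilobase of gene (log axis), in genome order, with 1 point per mouse, control mice in grey and Dok6 mutants in orange. The 6 genes from mt-Co2 to mt-Nd4l lie far below the 7 outside that stretch, in every mouse.

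Level per length differed sharply along the mitochondrial genome. In control means, the 6 mRNAs from mt-Co2 to mt-Nd4l (chrM:7013-10173) were between 10.8 CPM per kilobase for mt-Atp8 and 195 for mt-Atp6, while the 7 others were between 2282 for mt-Nd4 and 9056 for mt-Co1. Of the 6 low genes, 5 were matched by annotated copies on chromosome 1 over nearly their whole length. The copies Gm28661 (of mt-Co2), Gm10925 (mt-Atp6), Gm28437 (mt-Co3) and Gm10222 (mt-Nd4l) had 0 mismatches over 681, 678, 783 and 294 bases, and Gm28438 (mt-Nd3) had 1 over 345. The sixth, mt-Atp8, lies between mt-Co2 and mt-Atp6. Copies of parts of mt-Co1 (Gm29216) and mt-Nd4 (Gm28439) took at most 0.240% and 1.39% of their pairs' counts. How reads that fit both places were counted is not given in the sources used here, so levels and differences of these 6 genes are uncertain.

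In this stretch lay the one mitochondrial gene that edgeR called over all 6 mice with the low-count filter. mt-Co3, a core subunit of complex IV (chrM:8607-9390), was 142, 86.9 and 110 CPM in controls and 56.5, 63.4 and 55.6 CPM in mutants. The groups did not overlap and the log2 fold change was -0.95 (SE 0.16, edgeR adjusted p = 0.0135). The call held with any 1 mouse left out, at an adjusted p of 0.0229 to 0.0495. Summed with its identical copy Gm28437, it was 162, 108 and 142 CPM in controls and 89.5, 97.3 and 78.8 CPM in mutants, still without overlap, at a ratio of the means of 0.644. The copy took 12.6%, 19.8% and 22.9% of the pair's counts in controls and 36.9%, 34.8% and 29.4% in mutants. The neighbours mt-Co2 (-0.17, SE 0.33) and mt-Atp6 (0.43, SE 0.30) did not pass the test, nor did mt-Atp8 (0.27, SE 0.43) or mt-Nd4l (0.64, SE 0.43), though mt-Nd4l was called higher without mutant 3 (1.02, adjusted p = 0.0464).

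A division between gene and copy was clearest for mt-Nd3, a small membrane subunit of complex I. mt-Nd3 was 7.86, 7.68 and 11.0 CPM in controls and 2.49, 2.45 and 7.15 CPM in mutants. All mutants were lower, mutant 3 only narrowly, and the log2 fold change was -1.13 (SE 0.40, edgeR adjusted p = 0.0892). Without mutant 3 it was -1.84 (adjusted p = 0.0104), and it was also called with DESeq2 (adjusted p = 0.0199) and with no filter (0.0214). The copy Gm28438 went the other way, at 1.84, 1.72 and 1.77 CPM in controls and 8.61, 10.1 and 10.9 CPM in mutants (2.47, SE 0.19, edgeR adjusted p = 0.00177). The sum of both was 9.70, 9.40 and 12.8 CPM in controls and 11.1, 12.5 and 18.1 CPM in mutants, which overlapped. The copy's share of the pair was 18.9%, 18.3% and 13.8% in controls and 77.6%, 80.4% and 60.4% in mutants. The reference sequences differ at 1 of the 345 compared bases, T3C, counted from 1 at the 5′ end of mt-Nd3. The first 60 bases of each (GRCm38, chrM:9459-9518 and chr1:24613060-24613119, minus strand) are shown with that base in capitals, as the one base that tells these reference sequences apart.
mt-Nd3: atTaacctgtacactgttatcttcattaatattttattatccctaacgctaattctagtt
Gm28438: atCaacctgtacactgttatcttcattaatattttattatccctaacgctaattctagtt

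**Figure D5:**
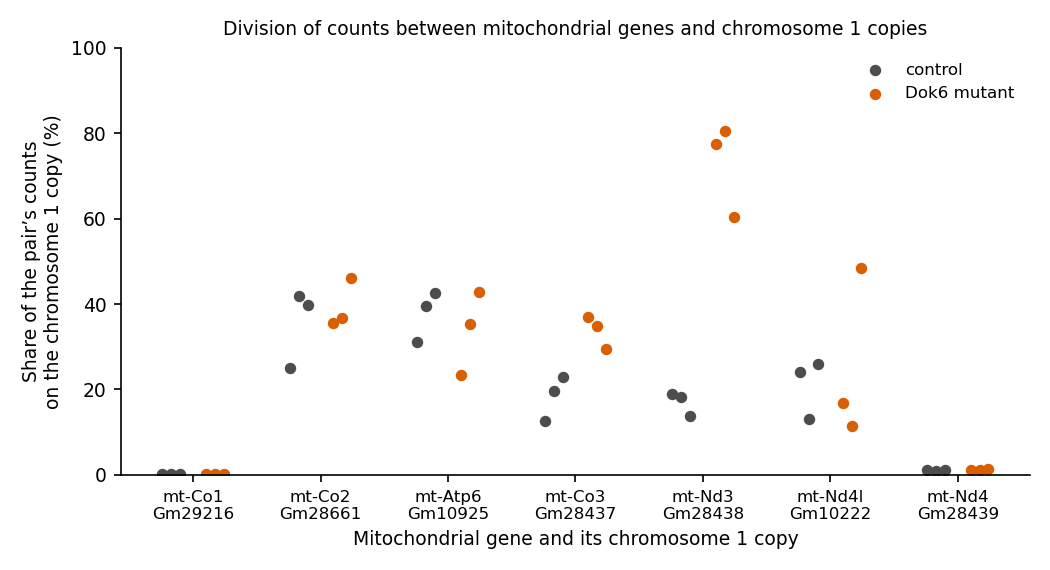
Share of the counts of each mitochondrial gene and its chromosome 1 copy that fell on the copy, in percent, with 1 point per mouse, control mice in grey and Dok6 mutants in orange. The share for mt-Nd3 was 13.8% to 18.9% in controls and 60.4% to 80.4% in mutants, and for mt-Co3 it also did not overlap, while the other 5 pairs overlapped.

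Mitochondrial tRNAs had few counts. Of 22, 8 could be tested, 7 of them were lower by point estimate, with a median log2 fold change of -0.27, and none was called by edgeR (3 were lower at an unadjusted p under 0.05, as were 2656 of all 17099 genes tested, and mt-Te was called by DESeq2). Without mutant 3, mt-Tw was called lower (adjusted p = 0.0231). mt-Te was 21.1, 17.1 and 22.2 CPM in controls and 12.6, 14.7 and 16.1 CPM in mutants, without overlap (-0.48, adjusted p = 0.0646). mt-Tg, the glycine tRNA gene, did not pass the low-count filter, with 6, 8 and 9 counts in controls and none in any mutant. It was called lower with no filter, but with no mutant count a tested difference had to be a fall. Its control mean of 0.439 CPM was at least 2.76-fold higher than the floor of 3 counts per library in mutants. mt-Tg (chrM:9391-9458) lies between mt-Co3 and mt-Nd3, in the stretch where the placement of reads is uncertain, and this bound does not cover that. In the same stretch, mt-Tr (chrM:9808-9875) had 1, 5 and 2 counts in controls and none in any mutant. Of the other nuclear members left untested, Ndufs6b, Ndufa11b and Atp5l2-ps had at most 11 counts, and Atp5c1-ps and a further Atp5o entry had none.

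Lists of other genes of mitochondrial function gave the following counts, whose difference from the structural subunits was not tested. Over all genes tested, 8.62% rose and 6.01% fell. Of 47 tested assembly factors, which build the complexes, 29 were higher and 18 lower by point estimate and the median was 0.05. Of them 4 rose, or 8.51%, which is near the share over all genes, among them Taco1, needed to translate mt-Co1 (0.71, adjusted p = 0.0189), while Cox19, a copper-handling factor with the lowest p among those lower, did not pass (-0.37, adjusted p = 0.0809). Of 77 mitochondrial ribosomal proteins, 54 were lower by point estimate, the median was -0.09, 3 fell (3.90%), such as Mrpl40 (-0.46, adjusted p = 0.0255), and Mrpl36 rose (0.74, 0.0193). Of 18 tricarboxylic acid cycle genes, 15 were lower with a median of -0.14, but the one call was a rise, Idh2, a matrix isocitrate dehydrogenase (0.55, adjusted p = 0.0366), and Idh3b was lower without passing (-0.24, 0.0730). Of 19 glycolytic genes 10 were lower and the median was -0.01. One of them rose, the muscle enolase Eno3 (1.18, adjusted p = 0.0480), and one fell, the lactate dehydrogenase gene Ldhb (-0.33, 0.0392).

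Of 40 genes for maintenance and expression of mitochondrial DNA, 5 rose (12.5%) and 2 fell (5%), with a median of 0.06. Tfam, which packages mitochondrial DNA and starts its transcription, fell from 45.5 ± 2.53 to 36.3 ± 0.795 CPM (mean ± SD, n = 3; -0.33, edgeR adjusted p = 0.0416), and Fastkd2, an RNA-binding factor, rose (0.73, 0.0279). Of 15 regulators of biogenesis, 2 rose (13.3%) and 1 fell (6.67%), with a median of -0.01. The fall was in Gabpb1, a subunit of GABP (-0.51, adjusted p = 0.0386), and the lowest p among the rises was in Pprc1, a coactivator related to PGC-1 alpha (0.82, adjusted p = 0.00720). Ppargc1a, which codes for PGC-1 alpha, was lower without passing (-0.31, adjusted p = 0.0822). Among 18 carriers and subunits not covered by the name rule the median was -0.12. Coq7, for ubiquinone synthesis, fell (-0.53, adjusted p = 0.0169), while Etfa (0.31, 0.0505) and cytochrome c, Cycs (-0.16, 0.267), did not pass. Each called gene named from these lists lost its call without control 2, at an adjusted p of 0.0525 to 0.131, a setting in which 56 genes rose and 12 fell in the whole table.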

How the data were processed

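The authors sequenced 1 library per mouse, from the sciatic nerve of 3 controls and 3 mutants. The deposited values are raw counts per gene. The labels name an NEBNext Ultra kit, the methods its directional form, and whether counting used strand, like the aligner and counter, is not given in the sources used here. The build is mm10, per the submitters' processing notes. Counts on near-identical or overlapping genes may be divided or lost.

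Groups came from the labels, and every column was mapped to a mouse. Genes passing edgeR's filter were fitted across the whole table with TMM factors and the quasi-likelihood test (edgeR 4.0.16, R 4.3.3, control against mutant, no covariate), with Benjamini-Hochberg adjustment and a threshold of 0.05. All adjusted p-values given without a tool are from this edgeR fit. CPM used the effective library sizes, under which 3 counts are 0.156 to 0.172 CPM. The biological coefficient of variation was 16.6%. Floors cover counting error only, and no 2 libraries agreed within sampling noise. Near-identical transcripts were found by alignment at 95% identity over at least 200 bases of the GENCODE GRCm38 transcripts. Alternatives were other scalings, filters, DESeq2 1.42.0, limma 3.58.1, a gene length correction, the replicate number as a block and leaving out each mouse. Scripts were tested on simulated data.

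Named genes were the mitochondrial mRNAs and rRNAs, isoform groups, core subunits, all called members, the lowest p in each direction per complex and list, and Ppargc1a, Tfam and Cycs. Not every gene under this rule is reported here. Other genes were named after their values were seen. Members and lists were chosen with earlier results of these data known.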

Additional observations from a re-analysis of the deposited data

How the results depend on the processing

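Directions held in all alternatives for the nuclear median (-0.25 to -0.15) and the median of the nuclear genes of each complex, while the mitochondrial mRNA median ran from -0.22 to 0.07 as mice were left out. Counts of calls were less stable. Nuclear genes called lower (9) were 22 with DESeq2 and 15 with RLE scaling, and 0 to 15 as mice were left out. Nuclear genes called higher (1) were 0 with at least 10 counts required in every library, 2 with no filter, and 0 to 2 as mice were left out. Mitochondrial genes called lower (1) were 3 with DESeq2 and 3 with no filter, and 1 to 3 as mice were left out, and those called higher (0) were 0 to 2. Requiring an absolute log2 fold change above 1 or above 2 left 1 of the 11 called members in each case. The complex IV median (-0.22) was -0.15 with the gene length correction and -0.12 with no filter. As mice were left out it was -0.21 to -0.16, that of complex II -0.26 to -0.10, and that of complex III -0.29 to -0.15. The cause of these changes was not tested.

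Control and mutant mice share replicate numbers, but the deviations of same-numbered mice correlated at -0.01, -0.17 and -0.24, and no mouse correlated best with its own number, so the numbers were not taken as pairs. With the replicate block, the calls were 0 higher and 0 lower among nuclear genes and 1 lower among mitochondrial genes, mt-Co3. With the block and the gene length correction together they were 0, 0 and 0, and the complex IV median was -0.15. Depth limits the rare isoforms and tRNAs, of which several had under 10 counts per library.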
